A study of Mus musculus with 12 samples.

Results

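The 10 genes described here report the integrated stress response: Atf4, Atf3, Ddit3, Trib3, Chac1, Asns, Psat1, Phgdh, Ddit4 and Eif4ebp1. They were chosen by name, from what is known of the pathway and with earlier results of these data known, among the 54735 gene symbols measured in each library. RNA was sequenced from the dissected dorsal telencephalon, the pallium that forms the cortex, of 12 C57/Bl6 mouse embryos at E13.5, 4 of each of 3 genotypes. Control embryos were Rnu11wt/flx::Trp53wt/wt::Emx1-Cre+ and so carried 1 floxed copy of Rnu11, the gene of the U11 small nuclear RNA that the minor spliceosome needs to splice minor introns. The cKO embryos were Rnu11flx/flx::Trp53wt/wt::Emx1-Cre+. The dKO embryos were Rnu11flx/flx::Trp53flx/flx::Emx1-Cre+ and so also lost Trp53, which encodes the transcription factor p53. All 12 carried Emx1-Cre, which recombines in dorsal telencephalic progenitors and their descendants; vessels, microglia, meninges and blood in the same dissection keep their alleles.

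In the integrated stress response, 4 kinases that sense different stresses phosphorylate the translation initiation factor eIF2. General translation falls, while the mRNA of the transcription factor Atf4 is translated more, so its RNA level need not follow its protein. ATF4 then raises genes for amino acid supply and for feedback on the response, and, when stress persists, genes linked to cell death. RNA measurements show the targets of the pathway and not eIF2 phosphorylation itself.

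The promoter sequences are shown because ATF4 binds, with C/EBP partners, a short composite element. Of the 10 genes, 5 match at least 1 of 2 patterns for it just upstream of their start. RefSeq promoters (GRCm38.p6, 250 bases before to 50 after each start) were found for 9 of the 10, with 2 promoters for Psat1. They were searched on both strands for TGATGNAA and for TGNNGCAAT, the second pattern having been chosen after these promoters were read. TGATGNAA occurs in 3.97% of the 32851 mouse promoters of the same length, TGNNGCAAT in 2.12%, and at least one of them in 5.8%. These shares count a match anywhere in the 300 bases. A match lies wholly upstream of the start in Atf3, Trib3, Chac1, Asns and Psat1, and none was found in the windows of Atf4, Ddit3, Phgdh and Ddit4. The upstream match of Trib3 and Psat1 is of TGNNGCAAT alone, the pattern chosen afterwards. The count of genes with a match therefore cannot be read against those shares. The Psat1 match is in 1 of its 2 promoters, and the other holds none. Both Psat1 promoters, and the Atf3 promoter, lie inside the longer span that GENCODE gives these genes. In the sequences below, written on the strand of the gene, capitals mark the matches, and TTGCATCA is TGATGNAA read on the other strand.
Atf3, chr1:191183416-191183463, minus strand: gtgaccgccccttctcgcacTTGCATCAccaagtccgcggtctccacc
Trib3, chr2:152344065-152344113, minus strand: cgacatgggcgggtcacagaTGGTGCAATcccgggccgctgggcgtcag
Chac1, chr2:119350992-119351076, plus strand: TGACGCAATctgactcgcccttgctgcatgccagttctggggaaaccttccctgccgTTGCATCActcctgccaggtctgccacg
Asns, chr6:7693210-7693252, minus strand: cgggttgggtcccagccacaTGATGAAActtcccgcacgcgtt
Psat1, chr19:15925167-15925215, minus strand: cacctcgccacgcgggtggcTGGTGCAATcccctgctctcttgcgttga
Trib3, Psat1 and 1 of the 2 Chac1 matches share the last letters GCAAT, and Asns holds the TGATG form. Trib3 also holds a TGATGNAA match that reaches past its start and is not shown. A match is a description of the letters only.

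The values are TPM, a transcript level corrected for gene length and scaled to a fixed sum, so levels of different genes can be set side by side. How many reads lie behind each library cannot be read from them. Protein-coding genes made up 14.6% to 16.3% of TPM in controls, 16.1% to 19.99% in cKO and 14.4% to 15.5% in dKO embryos, the highest share being that of cKO embryo 4. Over the 11764 genes tested, the median log2 change was 0.25 in cKO embryos relative to controls, -0.01 in dKO embryos relative to controls and -0.26 between dKO and cKO embryos. A change near 0.25 in the first comparison is thus what most genes show. Each result is therefore given also after 2 rescalings. In protein-coding rescaling, each library was multiplied by 1 factor (0.798 to 1.104) so that its protein-coding genes reach an equal sum, which brings the medians to 0.12, 0.04 and -0.08. In median-shift centring, each library was shifted so that the median gene does not move. Rnu11 was 640.5 ± 86.4 TPM (SD, n = 4) in controls, 144 in cKO and 164 in dKO embryos, and Trp53 fell from 3.82 TPM in controls to 1.22 in dKO embryos (exact two-sided permutation p = 0.0286 for each of these comparisons with controls, the smallest that 4 against 4 embryos allow). Dorsal telencephalon markers summed to 58.2 to 101 TPM per embryo, and 6 of 8 ventral markers were under 1 TPM in every embryo. Bulk values cannot tell apart fewer cells of a type and less RNA per cell, and p-values weigh a group difference against the spread between embryos.

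The 10 genes differed widely in level in controls. Psat1 was highest at 64.9 ± 5.05 TPM (SD, n = 4), followed by Phgdh at 29.7 ± 3.29, Atf4 at 13.2 ± 1.55, Ddit4 at 10.2 ± 1.11, Asns at 6.30 ± 0.425, Ddit3 at 1.98 ± 0.299 and Eif4ebp1 at 1.17 ± 0.416 TPM. Atf3 at 0.240 ± 0.0966, Trib3 at 0.0985 ± 0.0347 and Chac1 at 0.0781 ± 0.0266 TPM were the lowest. In that order, the ranges of neighbours overlapped only for Trib3 and Chac1. In cKO embryos Ddit4 reached the level of Atf4 (16.4 ± 2.22 against 16.2 ± 2.42 TPM, ranges overlapping). In dKO embryos Ddit4 at 9.99 ± 2.32 TPM overlapped with Asns at 8.92 ± 2.12 TPM.

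**Figure D1:**
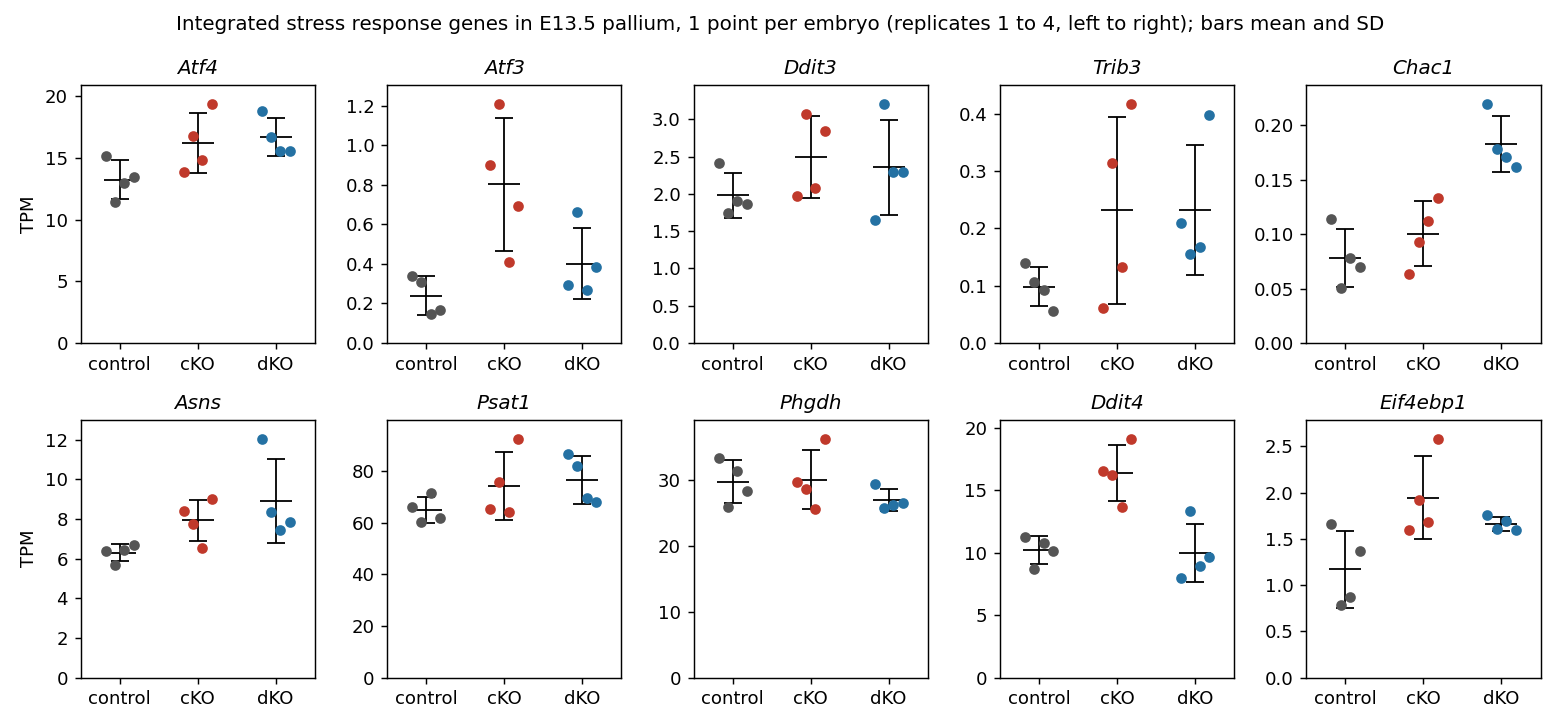
TPM of the 10 genes (vertical axes, from 0) in control, cKO and dKO embryos; each point is 1 embryo and bars are the mean and SD of 4. All 4 cKO embryos lie above all controls for Ddit4 and Atf3, and all 4 dKO embryos lie above all controls for Atf4, Asns, Trib3 and Chac1.

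Some of the genes followed 1 of 2 patterns. Ddit4 was higher in cKO than in control and in dKO embryos. With protein-coding rescaling, Atf4, Asns, Psat1 and Chac1 rose in dKO against control embryos (limma, adjusted p under 0.05). On that scale their means were highest in dKO embryos, with Asns overlapping between dKO and cKO. The means of Ddit3, Trib3 and Eif4ebp1 were also highest in dKO embryos, but these genes were not called in this comparison. As deposited, none of the 10 genes was called in dKO against control embryos, and with centring Atf4 alone was. When single embryos were left out, the rescaled call was kept in 8 of 8 fits for Atf4, 6 for Asns and 1 for Psat1. The rescaled Chac1 call came from a fit chosen after seeing the data. Phgdh passed the test in no comparison. Of the 10 genes, 7 reached a mean of 1 TPM and were tested with limma over all genes; Atf3, Trib3 and Chac1 did not, and their tests come from a fit of 39624 genes with no filter. Both comparisons with controls share the 4 control embryos.

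In cKO against control embryos, 2 of the 7 tested genes rose as deposited (limma, adjusted p under 0.05), Ddit4 and Eif4ebp1, where 34.3% of all tested genes rose. With protein-coding rescaling 1 rose, Ddit4, against 11.3% of all genes. With centring none was called, against 6.68% of all genes in either direction; at an unadjusted p under 0.05 there were 2, Ddit4 and Phgdh, and quantile normalization also called none (6.89% of all genes). The median log2 change of the 7 was 0.27, beside 0.25 for all genes. These counts are near the background.

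In dKO against control embryos, none of the 7 passed as deposited (5.19% of all genes were called in either direction), and 3 had an unadjusted p under 0.05: Atf4, Asns and Eif4ebp1. With protein-coding rescaling 3 of 7 rose, Atf4, Asns and Psat1, where 5.44% of all tested genes rose. With centring 1 rose, Atf4, against 3.74% of all genes, and quantile normalization called the same 3 as the rescaling (3.93% of genes rose). The median of the 7 as deposited was 0.23, beside -0.01 for all genes. In dKO against cKO embryos 1 fell as deposited, Ddit4, where 38.8% of genes fell. With rescaling Ddit4 fell (8.28% of genes fell) and Atf4 rose (1.4% of genes rose), and Atf4 alone was called, higher, with centring (2.1% of genes rose) and with quantile normalization (2.57%). The Atf4 call in dKO against cKO was kept in 0 of 8 fits that left out an embryo, with rescaling and with centring alike.

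Counted by overlap, as deposited 1 of the 7 tested genes, Ddit4, had all cKO embryos above all controls, where 32.7% of all tested genes did. For dKO above control it was 2 of 7, Atf4 and Asns, beside 5.14% of genes. For dKO below cKO it was 1, Ddit4, beside 32.8%. After protein-coding rescaling the count of cKO above control was again 1, Ddit4, beside 20.6% of genes. That of dKO above control was 4, Atf4, Asns, Psat1 and Eif4ebp1, beside 8.86%, and that of dKO above cKO was 2, Atf4 and Psat1, beside 3.69%. That of dKO below cKO was 0, beside 13.2%, so Ddit4 no longer separated these groups.

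**Figure D2:**
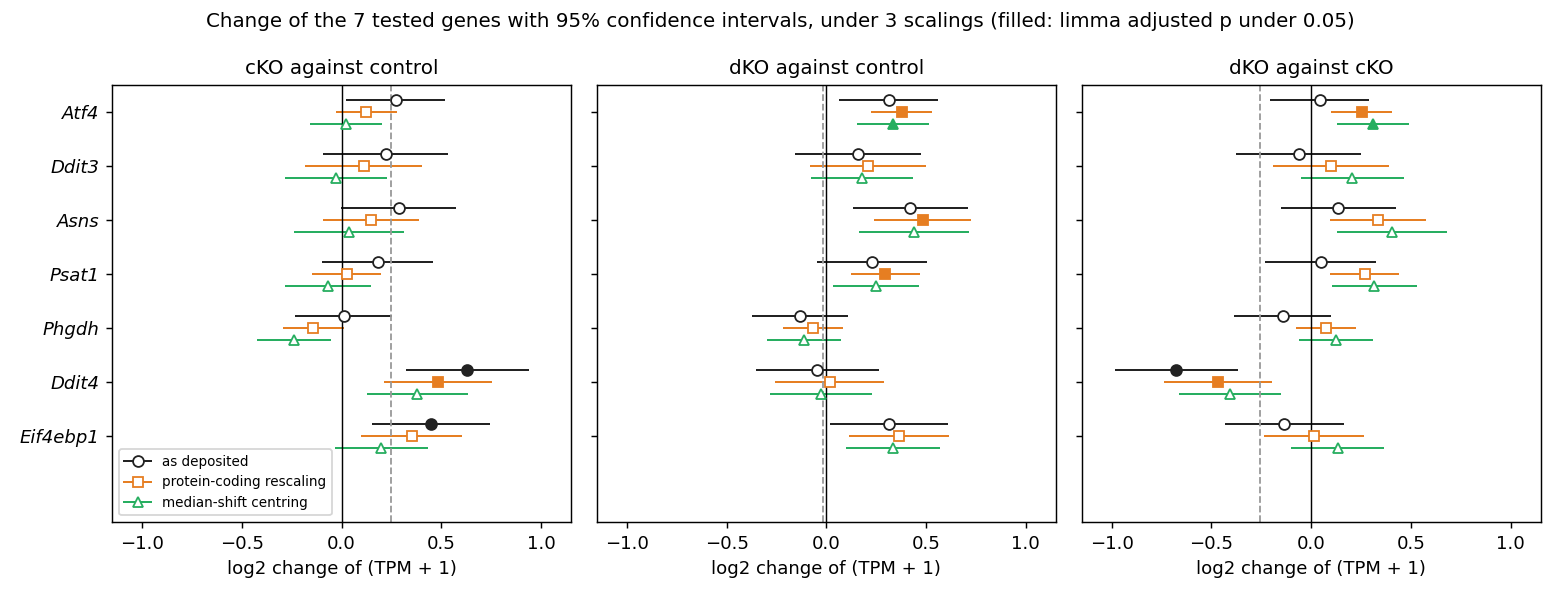
Log2 change of (TPM + 1) with 95% confidence intervals for the 7 tested genes in each comparison, as deposited (black), after protein-coding rescaling (orange) and after median-shift centring (green); filled symbols passed limma's adjusted p of 0.05 and the dashed line is the median of all tested genes as deposited. Ddit4 lies to the right of the line in cKO against control under all 3 scalings, and Atf4 is filled in dKO against control under both rescalings but open as deposited.

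Atf4 (chr15:80255184-80257541, plus strand, mm10) encodes the transcription factor at the centre of the response. Its RNA was 15.2, 11.4, 12.96 and 13.4 TPM in control embryos 1 to 4, 13.9, 16.8, 14.8 and 19.4 in cKO and 18.8, 16.7, 15.6 and 15.5 in dKO embryos. The dKO values lay just above the highest control, and the cKO values overlapped with both. Rescaled for the protein-coding sum, Atf4 was 14.8, 12.4, 12.9 and 13.9 in controls, 13.8, 15.3, 14.7 and 15.4 in cKO and 19.4, 17.8, 17.2 and 17.0 in dKO embryos. On that scale every dKO embryo was above every other embryo. As deposited, the log2 change was 0.31 ± 0.11 (SE) in dKO against control (limma, adjusted p = 0.143) and 0.27 ± 0.11 in cKO against control (adjusted p = 0.0797). With rescaling Atf4 rose 1.32-fold in dKO against control (log2 0.38 ± 0.07, limma adjusted p = 0.00729), and the call was kept without each of the 8 embryos in turn (limma adjusted p = 0.00695 to 0.0258). It also rose in dKO against cKO with rescaling (log2 0.25 ± 0.07, limma adjusted p = 0.0426), while as deposited that change was 0.04 ± 0.11. This call in dKO against cKO was lost whichever of the 8 embryos was left out, both with rescaling (limma adjusted p = 0.0546 to 0.112) and with centring (0.0507 to 0.122). With centring the change in dKO against control was 0.33 ± 0.08 (limma adjusted p = 0.0296), and it was not called without control embryo 2, 3 or 4 (p up to 0.0797). The protein-coding share reached its lowest values in dKO embryos, and its part in the result was not tested beyond these scalings.

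Asns (chr6:7675169-7693254, minus strand) makes asparagine and is a much-used readout of ATF4 activity. It was 6.37, 5.70, 6.45 and 6.69 TPM in controls, 8.38, 7.77, 6.56 and 9.02 in cKO and 12.1, 8.34, 7.44 and 7.83 in dKO embryos. All dKO embryos were above all controls, with dKO embryo 1 the highest of the 12, and cKO embryo 3 was within the control range. The log2 change as deposited was 0.42 ± 0.13 (SE) in dKO against control (limma, adjusted p = 0.0893) and 0.29 ± 0.13 in cKO against control (adjusted p = 0.105). With rescaling, Asns was 6.21 to 6.96 in controls, 6.51 to 8.31 in cKO and 8.22 to 12.4 in dKO embryos, a 1.48-fold rise in dKO against control (log2 0.48 ± 0.11, limma adjusted p = 0.0208). That call was lost without control embryo 2 or 3 (p up to 0.0552). Between dKO and cKO the rescaled ranges overlapped, with a log2 difference of 0.34 ± 0.11 (adjusted p = 0.0764). Marker sums of 2 neighbouring tissues also had higher means in dKO than in control libraries, with overlapping ranges. The 6 meninges markers summed to 28.3 TPM in controls (23.0 to 39.9), 45.4 in cKO and 45.0 in dKO embryos (36.3 to 53.05). The 6 markers of cortical hem and choroid plexus summed to 69.2 (43.3 to 99.99), 163 and 156 TPM (69.4 to 287). Their part in the Atf4 and Asns results was not tested.

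Psat1 and Phgdh (chr19:15904678-15947337 and chr3:98313170-98339990, both on the minus strand) catalyse successive steps of serine synthesis from a glycolytic intermediate, Phgdh first. Psat1 was 65.9, 60.4, 71.6 and 61.7 TPM in controls, 65.1, 75.6, 64.2 and 92.5 in cKO and 86.6, 81.8, 69.5 and 68.0 in dKO embryos. All groups overlapped as deposited. With rescaling Psat1 was 64.1 to 71.3 in controls, 63.7 to 73.8 in cKO and 74.6 to 89.2 in dKO embryos, so dKO lay above both. On that scale it rose 1.23-fold in dKO against control (log2 0.30 ± 0.08, limma adjusted p = 0.0383). This call was kept in only 1 of the 8 fits that left out an embryo (p up to 0.0998), being lost without any control embryo or without dKO embryo 1, 2 or 3. Phgdh was 33.4, 25.9, 31.3 and 28.4 TPM in controls, 29.7, 28.6, 25.6 and 36.2 in cKO and 29.4, 25.8, 26.2 and 26.5 in dKO embryos. The groups overlapped, and the log2 change in dKO against control was -0.13, with a 95% confidence interval of -0.37 to 0.11. In cKO against control its sign depended on the scaling, 0.01 as deposited, -0.14 rescaled and -0.24 centred. Whether Psat1 and Phgdh differ in their response was not tested.

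**Figure D3:**
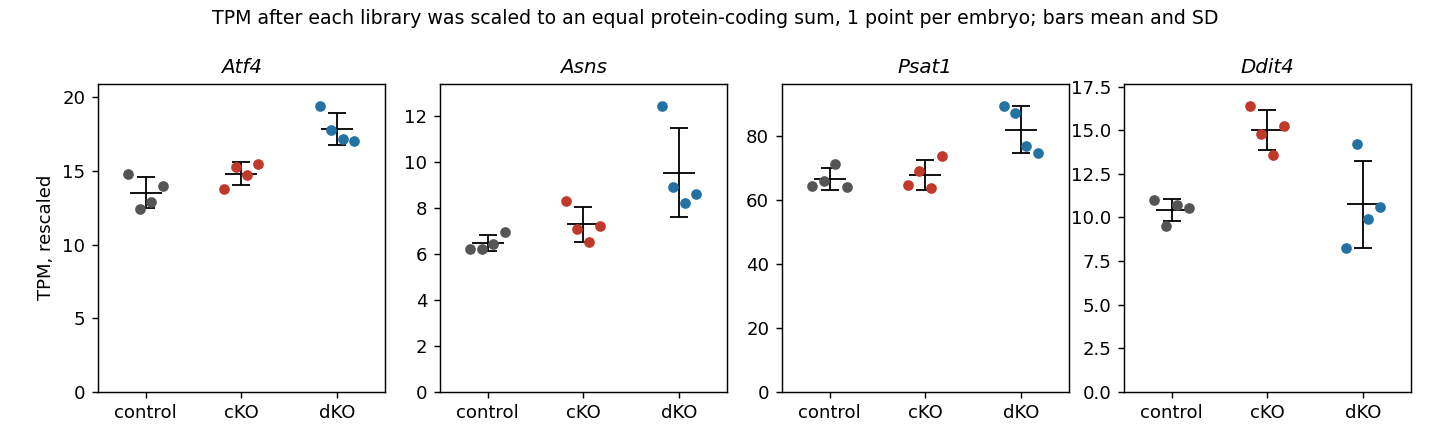
TPM after each library was multiplied to an equal protein-coding sum (vertical axes, from 0) for Atf4, Asns, Psat1 and Ddit4; each point is 1 embryo and bars are the mean and SD of 4. The dKO embryos lie above all controls for Atf4 (17.0 to 19.4), Asns (8.22 to 12.4) and Psat1 (74.6 to 89.2), and the cKO embryos above all controls for Ddit4 (13.6 to 16.4).

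Ddit4 (chr10:59949669-59951834, minus strand) encodes REDD1, an inhibitor of the growth kinase complex mTORC1; besides ATF4, p53, hypoxia and glucocorticoids are known to raise it. It was 11.3, 8.70, 10.8 and 10.1 TPM in controls, 16.5, 16.2, 13.7 and 19.1 in cKO and 8.01, 13.3, 8.95 and 9.66 in dKO embryos. Every cKO embryo was above every control and every dKO embryo, though dKO embryo 2 came close. Ddit4 rose 1.60-fold in cKO against control (log2 0.63 ± 0.14 SE, limma adjusted p = 0.00725) and was 0.610 times as high in dKO as in cKO embryos (log2 -0.68 ± 0.14, limma adjusted p = 0.00425). Both calls were kept without each embryo in turn (p up to 0.0242 and 0.0149). Between dKO and control embryos the log2 change was -0.05, with a 95% confidence interval of -0.35 to 0.26.

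Scaling made the Ddit4 difference smaller. With rescaling it was 0.48 in cKO against control (limma adjusted p = 0.0266) and -0.47 in dKO against cKO (adjusted p = 0.0377), and each call was lost when most single embryos were left out (kept in 2 and in 1 of 8 fits, p up to 0.0773 and 0.0965). Leaving out dKO embryo 2 gave the 1 kept call in dKO against cKO, with a limma adjusted p of 0.00375. After rescaling, dKO embryo 2 (14.2) was above cKO embryo 3 (13.6), so the cKO and dKO ranges overlapped. With centring the changes were 0.38 (adjusted p = 0.0789) and -0.41 (adjusted p = 0.0623). Beside Ddit4, 19 known p53 targets summed to 89.8 ± 3.16 TPM in controls, 226.7 ± 18.4 in cKO and 79.1 ± 3.27 in dKO embryos (SD, n = 4). Of the 15 tested members of that list, 13 rose in cKO with protein-coding rescaling (11.3% of all genes) and with centring (3.72%). Summed hypoxia targets were 173, 196 and 148 TPM, and glucocorticoid targets 50.1, 62.1 and 56.3 TPM. Summed microglia markers were 10.2 TPM in controls (9.71 to 11.2), 43.3 in cKO (34.97 to 49.7) and 13.3 in dKO embryos, and vessel markers 11.98, 22.8 and 17.2 TPM. Neuron markers summed to 269.8 TPM in controls (252 to 279.8), 378 in cKO (348 to 426) and 226 in dKO embryos (179 to 272), so every cKO embryo was above all others. Of the 10, as deposited 7 rose in cKO against control (34.3% of all tested genes) and 8 fell in dKO against cKO (38.8%) (limma). With protein-coding rescaling 2 rose (11.3%) and 5 fell (8.28%), and with centring 1 rose (3.72%) and 4 fell (3.83%). Radial glia markers summed to 277 TPM in controls (264 to 294), 337 in cKO (311 to 367) and 288 in dKO embryos (285 to 291). For this sum too, every cKO embryo was above all others. The part of these sums in the Ddit4 result was not tested.

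By profile over the 12 embryos, the genes most like Ddit4 were Meaf6, Abr and Cnih2. Their root mean square differences from Ddit4 in log2(TPM + 1), each gene less its own mean, were 0.0838, 0.0966 and 0.103, beside 0.36 for Ddit4 about its mean. All 4 share the libraries and hence any shift in them.

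Eif4ebp1 (chr8:27260329-27276674, plus strand) encodes 4E-BP1, which holds back cap-dependent translation when mTORC1 is inactive. It was 1.66, 0.785, 0.868 and 1.37 TPM in controls, 1.60, 1.92, 1.68 and 2.58 in cKO and 1.76, 1.61, 1.69 and 1.60 in dKO embryos. Control embryo 1 lay inside the range of both other groups, and dKO embryos were close together (1.66 ± 0.0764, SD, n = 4). It rose as deposited in cKO against control (log2 0.45 ± 0.14 SE, limma adjusted p = 0.0261). The call was lost without control embryo 2 or 3 or cKO embryo 2 or 4 (p up to 0.0811), with rescaling (0.35, adjusted p = 0.0652) and with centring (0.20, adjusted p = 0.311). Relative to controls, the change in dKO embryos was 0.31 (adjusted p = 0.22) as deposited and 0.36 (adjusted p = 0.0704) rescaled, where every dKO embryo was above every control. The nearest profiles to Eif4ebp1 were those of Smpd4, Oxa1l and Rtl8c, at root mean square differences of 0.0839, 0.0853 and 0.0910, beside 0.256 for Eif4ebp1 about its mean.

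Ddit3 (chr10:127290774-127296288, plus strand) encodes CHOP, a factor linked to cell death under lasting stress of the endoplasmic reticulum. It was 2.42, 1.74, 1.90 and 1.86 TPM in controls, 1.98, 3.08, 2.08 and 2.84 in cKO and 1.65, 3.21, 2.29 and 2.29 in dKO embryos. All groups overlapped, with cKO embryo 2 and dKO embryo 2 the highest. The 95% confidence interval of the log2 change was -0.09 to 0.54 in cKO and -0.16 to 0.47 in dKO against control, so neither a small fall nor a rise of that size could be told from no change.

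Atf3 (chr1:191170296-191218039, minus strand) encodes a stress-induced transcription factor that p53 is also known to raise. It was 0.337, 0.309, 0.146 and 0.168 TPM in controls, 0.900, 1.21, 0.408 and 0.695 in cKO and 0.295, 0.662, 0.266 and 0.384 in dKO embryos. Every cKO embryo was above every control, and the dKO range overlapped with both. In the fit with no filter, where 11% of genes rose in cKO, Atf3 rose by log2 0.52 ± 0.14 (SE) in cKO against control (limma adjusted p = 0.0312), a ratio of mean TPM of 3.35. The call was lost in 6 of the 8 fits that left out an embryo (p up to 0.0842; without control embryo 2, 3 or 4 or cKO embryo 1, 2 or 4) and with rescaling (0.47, adjusted p = 0.0872). In dKO against cKO the change was -0.35 (adjusted p = 0.111). Immediate early genes, which move with handling and activity, summed to 37.5 TPM in controls, 44.3 in cKO and 34.6 in dKO embryos, and 8 of the 14 were under 1 TPM in every embryo. The part of these genes, of p53 and of the microglia values above in the Atf3 result was not tested.

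Trib3 and Chac1 (chr2:152337422-152344032, minus strand, and chr2:119351229-119354381, plus strand) are ATF4 targets that encode a pseudokinase that feeds back on ATF4 and an enzyme that degrades glutathione. Trib3 was 0.139, 0.107, 0.0932 and 0.0551 TPM in controls, 0.0618, 0.315, 0.133 and 0.417 in cKO and 0.209, 0.155, 0.167 and 0.399 in dKO embryos. The dKO embryos were just above the controls, and cKO embryos spread from inside the control range to the highest value. Trib3 passed the test in no comparison (limma adjusted p = 0.299 and 0.531 for cKO and dKO against control). Chac1 was 0.114, 0.0506, 0.0784 and 0.0695 TPM in controls, 0.0633, 0.0928, 0.112 and 0.133 in cKO and 0.220, 0.178, 0.171 and 0.162 in dKO embryos. All dKO embryos were above all 8 others, at 0.183 ± 0.0254 TPM (SD, n = 4).

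In the fit with no filter Chac1 rose in dKO against cKO by log2 0.10 ± 0.03 (limma adjusted p = 0.0342; 0.331% of genes rose), a ratio of mean TPM of 1.82. That call was lost in 5 of 8 fits leaving out an embryo (p up to 0.0827; without cKO embryo 1 or 2 or dKO embryo 1, 2 or 3). Relative to controls the dKO change was 0.13 ± 0.03 (adjusted p = 0.0519), and 0.15 with rescaling (adjusted p = 0.0168; 1.33% of genes rose). The call in dKO against cKO also held with rescaling (0.13, adjusted p = 0.0237; 0.389% of genes rose). These log2 values are small because the pseudocount of 1 exceeds the level of the gene.

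As deposited, cKO embryo 4 was the highest of the 12 for 6 of the 10 genes, Atf4, Trib3, Psat1, Phgdh, Ddit4 and Eif4ebp1, and it had the highest protein-coding share. After rescaling it was the highest for 1, Eif4ebp1, and dKO embryo 1 was the highest for 4, Atf4, Chac1, Asns and Psat1.

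Upstream of Atf4, 17 genes were tested: the eIF2 kinases with their activators Gcn1l1 and Dele1, subunits of eIF2, eIF2B and the eIF2 phosphatases, and the initiation factor Eif2a. As deposited 5 rose in cKO against control, where 34.3% of all tested genes rose. The median log2 change of the 17 was 0.23 beside 0.25 for all genes. With either rescaling none was called (limma, with 3 higher at an unadjusted p under 0.05 after protein-coding rescaling). In dKO against control none was called under any of the 3 scalings (1 was higher at an unadjusted p under 0.05 as deposited). The kinase PERK (Eif2ak3) was 1.31 ± 0.218, 1.82 ± 0.126 and 1.26 ± 0.158 TPM in control, cKO and dKO embryos, and PKR (Eif2ak2) 2.58 ± 0.428, 3.76 ± 0.862 and 2.45 ± 0.5 TPM (SD, n = 4). Both were among the 5, the others being Dele1, Eif2b5 and Eif2s1, which encodes the phosphorylated subunit. HRI (Eif2ak1) and GCN2 (Eif2ak4) changed by log2 0.18 and 0.05 in cKO against control and did not pass the test. Ppp1r15a, a phosphatase subunit that ATF4 signalling induces to end the response, was 2.05 ± 0.288, 2.82 ± 0.626 and 2.95 ± 0.903 TPM and passed in no comparison.

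Of 6 tested bZIP partners and relatives of ATF4, 2 rose in cKO as deposited, Atf2 and Nupr1, where 34.3% of all tested genes rose. With protein-coding rescaling 1 rose, Atf2 (11.3% of all genes), and with centring none (0 had an unadjusted p under 0.05). Between dKO and control embryos none was called as deposited or centred (limma, 2 had an unadjusted p under 0.05). With rescaling 1 rose (5.44% of all genes), Atf6, a stress sensor of the endoplasmic reticulum. Atf5, itself translated when eIF2 is phosphorylated, was 3.39 ± 1.1, 3.73 ± 0.877 and 4.2 ± 1.24 TPM in control, cKO and dKO embryos. Cebpg, a dimer partner of ATF4, was 13.7 ± 1.69, 16.1 ± 2.12 and 11.9 ± 1.13 TPM and fell in dKO against cKO as deposited (log2 -0.41, limma adjusted p = 0.0141), but not with rescaling (-0.20, adjusted p = 0.113). Cebpb was 0.076, 0.13 and 0.0439 TPM, below the filter.

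Around Psat1 and Phgdh, the other 12 tested serine, glycine and one-carbon enzymes did not move together. Between dKO and control embryos 1 rose and 1 fell under each of the 3 scalings (as deposited, 1.79% of all tested genes rose and 3.4% fell). Mthfd2l, a mitochondrial folate enzyme, was 9.47 ± 1.09 TPM in controls, 14.9 ± 1.7 in cKO and 16.6 ± 3.82 in dKO embryos and rose by log2 0.73 (limma adjusted p = 0.0132). Tyms, which makes thymidylate and marks DNA replication, was 45.6 ± 2.3, 37.5 ± 5.73 and 30.6 ± 0.972 TPM and fell by 0.56 on the log2 scale (adjusted p = 0.00669). Psph, which completes serine synthesis, was 6.48 ± 0.49, 6.24 ± 1.18 and 5.43 ± 0.579 TPM. Shmt2 and Mthfd2, mitochondrial folate enzymes that ATF4 is known to raise, changed by log2 -0.30 and -0.01 in dKO against control. Psph, Shmt2 and Mthfd2 passed the test in no comparison.

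Beside Asns, 12 other amino acid synthesis enzymes were tested. In cKO, 3 rose as deposited, where 34.3% of all tested genes rose. With protein-coding rescaling (11.3% of genes rose) and with centring (3.72%) 1 rose, Glul, which makes glutamine (7.28 ± 0.654, 10.8 ± 0.745 and 8.43 ± 0.736 TPM). None was called in dKO against control (limma; 1 was higher and 2 lower at an unadjusted p under 0.05). Of 9 tested amino acid transporters, Slc7a11 and Slc3a2, the partners of the cystine importer, rose in cKO as deposited (34.3% of all genes rose). Slc7a11 was 1.16 ± 0.0776 TPM in controls, 3.02 ± 0.16 in cKO and 1.69 ± 0.443 in dKO embryos and rose in cKO under each of the 3 scalings (log2 0.90, 0.79 and 0.65; limma adjusted p = 2.0e-04, 0.002 and 0.0063). Slc3a2 was 15 ± 2.37, 21.7 ± 3.65 and 16.7 ± 1.33 TPM and lost its call with centring (log2 0.26, adjusted p = 0.153). Slc7a5, another partner of Slc3a2, was 2.99 ± 1.18, 3.64 ± 0.911 and 3.73 ± 1.21 TPM and passed in no comparison. A list of 21 genes held the tRNA exporter Xpot and cytosolic tRNA synthetases, many of which ATF4 is known to raise. Of these, 4 rose in cKO as deposited, where 34.3% of all genes rose. None rose with either rescaling (limma, with 2 higher and 1 lower at an unadjusted p under 0.05 after protein-coding rescaling). Of the 21, 1 fell in dKO against control, Hars (log2 -0.58, limma adjusted p = 0.0108), and none rose. As deposited, 3.4% of all tested genes fell in that comparison.

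Of 14 further stress genes that ATF4 can raise, Slc7a11 among them, 8 were tested. As deposited 7 of the 8 rose in cKO against control, with a median of 0.55 beside 0.25 for all genes, of which 34.3% rose. With protein-coding rescaling 4 rose, Sesn2, Slc7a11, Nfe2l2 and Ddr2 (11.3% of all genes), and with centring 3, the same without Ddr2 (3.72%). Sesn2, an mTORC1 inhibitor that p53 also raises, was 0.505 ± 0.22 TPM in controls, 4.01 ± 0.937 in cKO and 0.548 ± 0.175 in dKO embryos, a log2 rise of 1.73 in cKO (limma adjusted p = 1.6e-05) and a fall by 1.68 in dKO against cKO (adjusted p = 2.3e-05). Nfe2l2, the antioxidant regulator NRF2, was 4.21 ± 0.403, 6.7 ± 0.859 and 4.21 ± 0.564 TPM. Sesn2 and Nfe2l2, like Ddit4, had their highest mean in cKO embryos, with control and dKO means close together. The median of all tested genes had this form too as deposited, at log2 0.25 in cKO and -0.01 in dKO against control. In dKO against control none of the 8 was called as deposited (limma; 4 at an unadjusted p under 0.05), 2 rose after rescaling, Ddr2 and Gadd45a (5.44% of all genes), and 1 with centring, Ddr2 (3.74%). Ddit4l, the paralog of Ddit4, was 0.389 ± 0.176, 1.63 ± 0.161 and 0.205 ± 0.0724 TPM, below the filter, with every cKO embryo above all others. The microglia, vessel and p53 target sums given with Ddit4 move with these genes too, and their part was not tested.

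**Figure D4:**
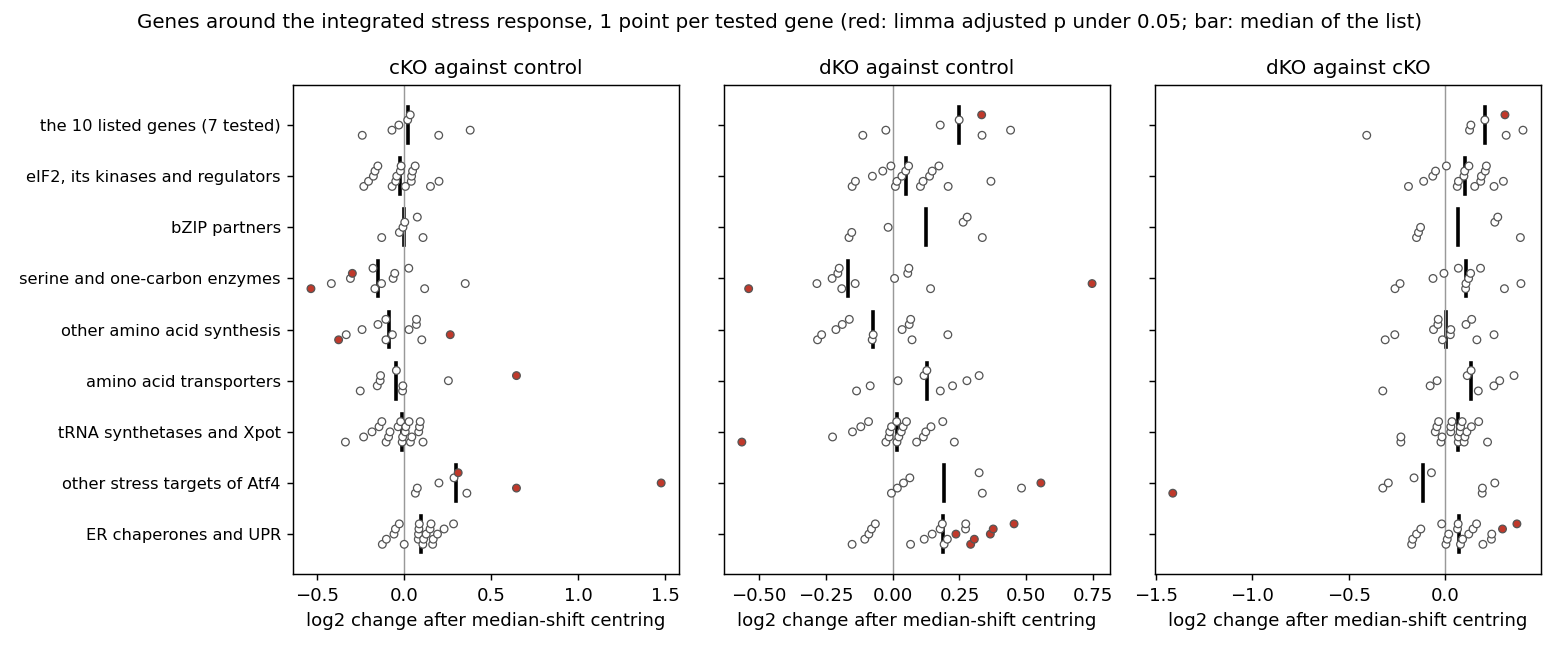
Log2 change after median-shift centring (horizontal axes, which differ in range) of each tested gene in 9 lists (vertical axis); each point is 1 gene, red points passed limma's adjusted p of 0.05 and the bar is the median of the list. In cKO against control Sesn2 stands apart at 1.48, and in dKO against control 6 of the 20 genes of the endoplasmic reticulum are red and all 6 are higher.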

How the data were processed

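Pallia of 12 embryos were profiled as stranded total RNA. Alignment used HISAT2 with mm10, per the submitters' processing notes; the quantification tool and annotation are not given in the sources used here. The deposited values are TPM per gene symbol, a unit inferred from the values, since each of the authors' tables sums to 1000000. Depth is unknown, so no counting interval is given.

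The 10 genes and the lists around them were chosen with earlier results of these data known. The log2(TPM + 1) values of all 3 groups entered 1 limma 3.58.1 fit (lmFit, eBayes with trend; R 4.3.3) of the 11764 genes averaging 1 TPM or more. A gene was called when its p, adjusted by Benjamini-Hochberg across every gene tested, was under 0.05. The pseudocount understates changes of low genes. Replicate numbers repeat across genotypes, but no label ties them to litters, so no block was used. Rnu11 and Trp53 were compared by exact permutation tests.

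Named are the 10 genes and, from each list, up to 3 called genes per comparison with the largest change, a set of known pathway genes whatever their change, and, for called members, the 3 genes with the nearest profiles. Further called genes are named where a count of 5 or fewer, or a call that changed with the scaling, is spelled out; these were singled out after their values were seen. Gene types and positions came from GENCODE M21, and promoters from RefSeq. The scripts were tested on simulated data. Alternatives were other scalings, filters and pseudocounts, sample weights, fits of 2 groups, a replicate block and leaving out each embryo; leaving out embryos with no filter or with protein-coding rescaling, and rescaling with no filter, were chosen after seeing the data. One result on a gene of the lists is not reported here.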

Additional observations from a re-analysis of the deposited data

How the results depend on the processing

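The number of the 7 tested genes called in cKO against control was 2 as deposited and 1 with protein-coding rescaling. It was 0 with median-shift centring or quantile normalization. With no filter it was 1, where 4359 of 39624 genes rose. With a mean of at least 5 TPM it was 1, where 1800 of 5803 genes rose. With sample weights it was 4, where 5887 of 11764 genes rose and 212 fell. In dKO against control the number called was 0 as deposited, 1 with centring and 3 with rescaling or quantile normalization. In dKO against cKO it was 1 as deposited and 2 with rescaling. The shares of all genes under these scalings are given above. Of the 108 tested genes in the surrounding lists, centring left 7 called in cKO against control, 10 in dKO against control and 3 in dKO against cKO. Rescaling left 13, 14 and 7, and quantile normalization 7, 10 and 5. Of all tested genes, centring called 6.68%, 8.43% and 5.93% in either direction in these comparisons. Rescaling called 13.1%, 9.18% and 9.68%, and quantile normalization 6.89%, 8.75% and 6.78%. Deviations of same-numbered embryos correlated at -0.0954 to 0.0745. Pairs with different numbers were not compared, so this cannot show whether the numbers mark shared litters or batches. With the replicate block and centring 0 of the 7 genes were called in cKO against control, 0 in dKO against control and 0 in dKO against cKO. The block alone left these counts at 2, 0 and 1. With it, 2867 of 11764 genes rose and 112 fell in cKO against control. In dKO against cKO 53 rose and 3555 fell.

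Some log2 changes turned sign, and no value on the other side of 0 passed the test. In cKO against control, centring, with or without the block, gave Ddit3 -0.029, Psat1 -0.069 and Phgdh -0.24, and without the block Trp53 -0.070. Quantile normalization gave Ddit3 -0.059 and Phgdh -0.20, rescaling Phgdh -0.14 and sample weights Phgdh -0.011. Ddit4 in dKO against control was 0.017 rescaled. In dKO against cKO, centring, with or without the block, gave Ddit3 0.21, Phgdh 0.13 and Eif4ebp1 0.13, rescaling 0.099, 0.075 and 0.013, and quantile normalization 0.22, 0.087 and 0.14; sample weights gave Atf4 -0.0072 and Psat1 -0.012.

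Leaving out 1 embryo gave 1 to 3 calls in cKO against control, 0 in dKO against control and 1 in dKO against cKO as deposited. The counts were 0 to 2, 1 to 3 and 0 to 1 with rescaling, and 0, 0 to 2 and 0 to 1 with centring. In the fits as deposited, 2327 to 4149 of all tested genes rose in cKO against control, and 2954 to 4753 fell in dKO against cKO. Over these fits as deposited and centred, the changes that crossed 0 in cKO against control ranged from -0.018 to 0.34 for Atf4, -0.096 to 0.29 for Ddit3, -0.020 to 0.36 for Asns, -0.13 to 0.25 for Psat1 and -0.28 to 0.080 for Phgdh. In dKO against control Ddit4 ranged from -0.18 to 0.052. In dKO against cKO the ranges were -0.024 to 0.35 for Atf4, -0.18 to 0.31 for Ddit3, -0.0035 to 0.48 for Asns, -0.016 to 0.38 for Psat1, -0.21 to 0.17 for Phgdh, -0.19 to 0.18 for Eif4ebp1 and, with no filter, -0.062 to 0.077 for Trib3. Rnu11 ranged from -2.24 to -2.04 in cKO and from -2.06 to -1.90 in dKO against control, and Trp53 from -1.18 to -0.84 in dKO against control and from -1.30 to -1.17 in dKO against cKO, where 3 against 4 embryos allow no exact permutation p under 0.0571. The cause of these changes was not tested.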

Other observations

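The endoplasmic reticulum has its own branches of stress signalling, through Xbp1 and Atf6, beside the one that runs through PERK and Atf4. Of 20 tested chaperones and regulators of these branches, 15 rose in cKO against control embryos as deposited (limma, adjusted p under 0.05), with a median log2 change of 0.35 beside 0.25 for all genes, of which 34.3% rose. With protein-coding rescaling 5 rose (11.3% of all genes), and with centring none did (4 were higher at an unadjusted p under 0.05). In dKO against control 1 rose as deposited, Hyou1 (1.79% of all genes rose), 8 with rescaling (5.44%) and 6 with centring (3.74%), namely Hspa5, Calr, Hyou1, Manf, Pdia3 and Pdia4, and none fell. The median of the list in dKO against control was 0.17 as deposited, beside -0.01 for all genes.

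Hspa5, the main chaperone of the endoplasmic reticulum, was 31.1 ± 1.76 TPM (SD, n = 4) in controls, 40.7 ± 3.17 in cKO and 37.7 ± 2.07 in dKO embryos, and its centred log2 change in dKO was 0.29 (limma adjusted p = 0.0164). Hyou1, a chaperone induced by low oxygen, was 3.63 ± 0.466, 5.12 ± 0.511 and 5.26 ± 0.723 TPM, with a log2 change of 0.43 in dKO as deposited (adjusted p = 0.0295). Pdia4, which forms disulfide bonds, was 25.4 ± 1.87, 36.1 ± 5.32 and 32.8 ± 1.83 TPM, and Calr, a calcium-binding chaperone, 97.9 ± 7.34, 143 ± 21.1 and 124 ± 5.43 TPM. Marker sums of secretory cells in the dissection also had higher means in cKO and dKO than in control embryos. Meninges markers summed to 28.3, 45.4 and 45.0 TPM in control, cKO and dKO embryos. Those of cortical hem and choroid plexus summed to 69.2 (43.3 to 99.99), 163 (82.4 to 248) and 156 TPM (69.4 to 287). For both sums the dKO range overlapped with that of controls. The part of these cells in the chaperone values was not tested.

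Of 5 tested relatives of the 10 genes, 1 rose in cKO as deposited, Eif4e, the target of 4E-BP1, where 34.3% of all genes rose. None rose with either rescaling (limma, with 1 higher at an unadjusted p under 0.05 after protein-coding rescaling). Eif4ebp2, which does the same work as Eif4ebp1, was 4.29 ± 1.48, 4.59 ± 0.708 and 5.01 ± 1.89 TPM in control, cKO and dKO embryos. Chac2, the paralog of Chac1, was 3.27 ± 0.509, 3.55 ± 0.705 and 3.68 ± 0.479 TPM. Trib2 was 9.8 ± 1.22, 12.8 ± 2.54 and 9.4 ± 0.799 TPM, and Trib1, at 0.318, 0.333 and 0.285 TPM, was below the filter. In controls Trib2 and Chac2 were thus far above Trib3 and Chac1.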
